A study of Homo sapiens with 36 samples.

Results

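The CLK and SRPK kinases and the speckle proteins that work with them were followed by gene symbol through the RNA-seq and m6A tables of UM-SCC-1 cells. The group has 9 members, CLK1, CLK2, CLK3, CLK4, SRPK1, SRPK2, SON, SRRM1 and SRRM2, and all 9 were found among the 21797 genes of the RNA-seq table. UM-SCC-1 is an established cell line derived from a squamous carcinoma of the head and neck. Cells received retroviruses with an shRNA against ALKBH5 (shRNA-1 or shRNA-2), one against RBM33 (shRNA-1 or shRNA-2) or a scramble, and every group was kept in 10 ug/mL blasticidin for 4 days. The design text says siRNA where the titles say shRNA, and the titles are used here. ALKBH5 is the enzyme that erases N6-methyladenosine (m6A), a methyl mark on RNA, and RBM33 binds RNA and ALKBH5. RNA-seq values were analysed for 2 libraries each of ALKBH5 shRNA-1 and ALKBH5 shRNA-2, 3 of the ALKBH5 scramble, 2 of RBM33 shRNA-1, 3 of RBM33 shRNA-2 and 3 of the RBM33 scramble. All come from 1 cell line, and whether replicates were grown as separate cultures is not in the labels. The p-values therefore describe the spread among these samples alone, which may be technical.

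Splicing factors of the SR family carry long stretches of alternating arginine and serine. SRPK kinases phosphorylate these stretches in the cytoplasm, which lets SR proteins enter the nucleus, and CLK kinases phosphorylate them further in the nucleus, which releases them from nuclear speckles to active genes. Speckles are nuclear bodies rich in splicing factors. SON and SRRM2 form their core, and SRRM1 is a splicing coactivator that also resides there.

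Depth per library ranged between 4493849 and 6733017 reads. Levels are in CPM, reads scaled to a normalized size of each library, so the libraries do not share a common total. A count of 0 allowed up to 0.43 to 0.659 CPM, covering counting error only. ALKBH5 was at 75.1 to 89.6 CPM in the 4 ALKBH5 shRNA libraries and at 108.8 to 131.7 CPM in the scramble libraries. The change was -0.53 in log2 (limma adjusted p = 9.1e-05, SE 0.08). RBM33 was at 191.4 to 214.4 CPM in the 5 libraries labelled RBM33 shRNA and at 207.2 to 227.1 CPM with the scramble. That log2 difference of -0.10 (SE 0.06, limma adjusted p = 0.27) was not called, and was called in 1 of 18 alternatives, so these libraries go by their label throughout. Of 8 squamous epithelial markers, 3 had a row in the table used here (SFN, DSG3 and CDH1), and they summed to 1.33 to 7.69 CPM, so the squamous identity in the labels was not visible in them. The leukocyte and endothelial markers with a row (2 of 4 each) summed to at most 4.24 and 5.47 CPM, and the 4 fibroblast markers to 17.9 to 27.4 CPM, mostly from COL1A1.

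All 9 members were expressed in every library, at very different levels. Per kilobase of exonic length and averaged over the 15 libraries, SRRM2 was highest at 73.0 CPM per kb, followed by SRPK1 at 53.2, SRRM1 at 37.0, SON at 33.3, CLK2 at 22.1, CLK1 at 16.8, SRPK2 at 14.6, CLK4 at 4.86 and CLK3 at 1.95 CPM per kb. The low place of CLK3 rests on the exonic length of 20443 bases that the deposited table gives it, against 3658 bases for CLK2. Neighbours in this order were read as apart in a group where their means differed by more than both SDs summed, and 6 of the 8 pairs were apart in all 6 groups. SRRM1 and SON were apart in 3 groups, but not with ALKBH5 shRNA-1, ALKBH5 shRNA-2 or RBM33 shRNA-2, where they were at 39.6 ± 3.21 and 37.2 ± 0.628 CPM per kb (SD, n = 3). With ALKBH5 shRNA-2 SRRM1 was the lower, at 33.7 ± 2.07 against 34.4 ± 1.68 CPM per kb (SD, n = 2). CLK1 and SRPK2 were not apart in either scramble, at 15.4 ± 0.136 and 15.4 ± 1.47 CPM per kb in that of ALKBH5 and, in the opposite order, at 14.5 ± 0.676 and 15.8 ± 2.23 CPM per kb in that of RBM33 (SD, n = 3 each).

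**Figure D1:**
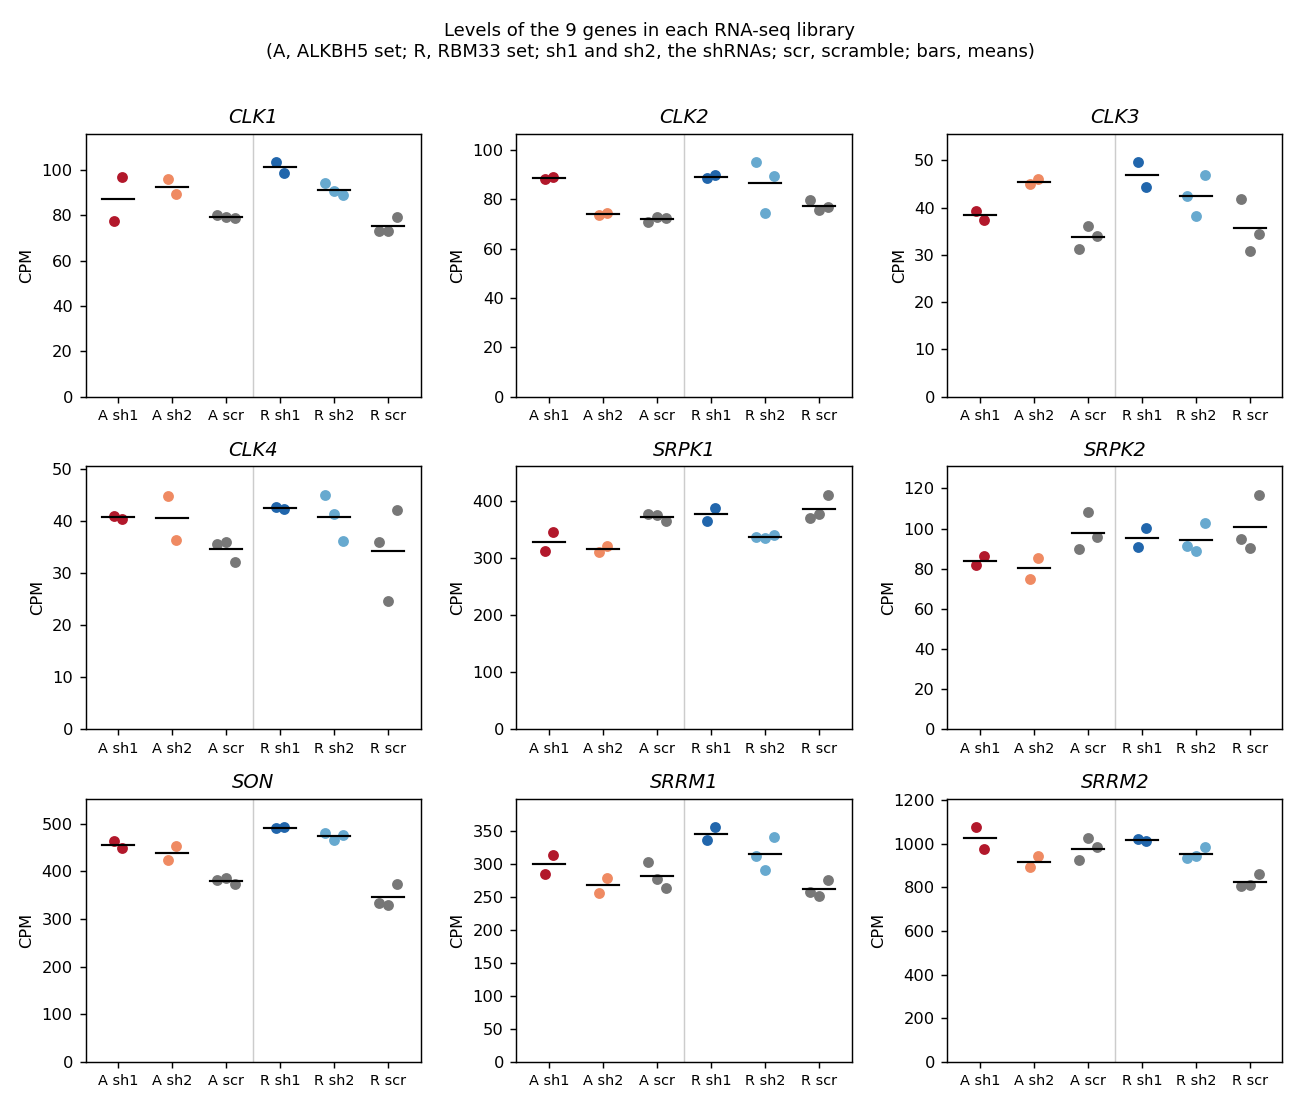
Level in CPM (vertical axis, from 0) of each of the 9 genes in every RNA-seq library, by group along the horizontal axis, with shRNA groups left of their scramble and bars at group means. SON in the libraries labelled RBM33 shRNA lay between 465.5 and 493.1 CPM, above all other groups, and SRPK1 in the ALKBH5 shRNA libraries lay between 311.0 and 345.8 CPM, below its scramble.

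Which members changed with ALKBH5 shRNA was asked first. SON rose and SRPK1 fell, and the other 7 did not pass the test: 2 of 9 members were called at a limma adjusted p under 0.05, where 15.1% of all 18227 tested genes were called (7.93% higher and 7.18% lower). Among the 6381 genes averaging 30 CPM or more, the range in which all members lie, 29% were called, so the share of members called was not above that of comparably expressed genes. The median log2 change of the members was 0.17, and that of all tested genes was 0.01.

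SON (chromosome 21, 33543038 to 33577481, hg38, plus strand) had 463.2 and 449.0 CPM with ALKBH5 shRNA-1, 423.9 and 454.3 CPM with ALKBH5 shRNA-2, and 382.1, 387.2 and 372.9 CPM with the scramble. Every shRNA library was above every scramble library. In bulk samples such as these, a change in the mix of cells and a change in RNA per cell cannot be told apart. The log2 change was 0.23 (SE 0.06, limma adjusted p = 0.014), a level 17.5% above the scramble. Without ALKBH5 scramble replicate 3 it was 0.22 (limma adjusted p = 0.056).

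SRPK1 (chromosome 6, 35832966 to 35921342, minus strand), the kinase that primes SR proteins in the cytoplasm, had 312.5 and 345.8 CPM with ALKBH5 shRNA-1, 311.0 and 322.2 CPM with ALKBH5 shRNA-2, and 377.5, 376.9 and 365.7 CPM with the scramble. The groups did not overlap. The log2 change was -0.21 (limma adjusted p = 0.026, SE 0.06). It was called in 11 of 17 alternatives, and the call was lost without ALKBH5 shRNA-1 replicate 1 (-0.17, limma adjusted p = 0.1), without ALKBH5 shRNA-2 replicate 1 (limma adjusted p = 0.071) and without ALKBH5 scramble replicate 1 or replicate 2 (limma adjusted p = 0.083 and 0.081). SRPK2, its relative, was at 75.1 to 86.4 CPM in the shRNA libraries and at 89.8 to 108.2 CPM in the scramble libraries. Its values did not overlap either, but the log2 change of -0.25 (SE 0.09) had a limma adjusted p of 0.079.

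The CLK kinases lay on the other side of 0. CLK3 had the largest difference among the members, at 37.4 to 46.0 CPM in the ALKBH5 shRNA libraries and 31.2 to 36.0 CPM in the scramble libraries (log2 difference 0.30, SE 0.11, limma adjusted p = 0.066). CLK4 differed by 0.23 (SE 0.14, limma adjusted p = 0.29), and CLK1 and CLK2 by 0.17 each (SE 0.08, limma adjusted p = 0.16 and 0.18). None of the 4 passed over both shRNAs. CLK1 had 77.7 and 97.0 CPM with shRNA-1, and without the lower of these libraries, replicate 1, it passed at 0.25 (limma adjusted p = 0.049). SRRM1 and SRRM2 stayed closest to the scramble, at 0.01 (95% interval -0.14 to 0.16) and -0.01 (95% interval -0.14 to 0.12).

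Each ALKBH5 shRNA was also set against the scramble, which both comparisons share. With shRNA-1, 1 of 9 members was called (8.53% of all tested genes), SON at 0.26 (SE 0.07, limma adjusted p = 0.032), and CLK2 stood at 0.30 (limma adjusted p = 0.062), with 88.3 and 89.1 CPM against 70.9 to 72.8 CPM in the scramble. With shRNA-2, 2 of 9 were called (10.1% of all tested genes): CLK3 at 0.42 (SE 0.13, limma adjusted p = 0.042) and SRPK1 at -0.24 (SE 0.08, limma adjusted p = 0.046). CLK2 differed by 0.04 there, with 73.7 and 74.4 CPM. Among genes averaging 30 CPM or more, 17.4% were called with shRNA-1 and 20.5% with shRNA-2, so neither count sets the members apart. The shRNA-1 call was lost without any 1 library of its groups, and the shRNA-2 calls numbered 0 or 1 without any 1 of theirs. In the authors' deposited edgeR tables, SON with shRNA-1 was the single member at an FDR under 0.05 (0.26, FDR 0.042), and in the authors' deposited DESeq2 tables SRPK1 was lower with both shRNAs (-0.20, adjusted p 0.03, and -0.28, adjusted p 0.0012) and SON higher with shRNA-1 (0.19, adjusted p 0.037). Which libraries entered the authors' deposited changes was not established, so they may differ from the libraries analysed here.

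The same question was asked of the RBM33 set. The speckle proteins SON, SRRM1 and SRRM2 and the kinases CLK1 and CLK3 rose under the RBM33 shRNA label. The SRPK kinases did not pass. In all 5 of 9 members were called, each higher, where 17.7% of all tested genes were called (8.5% higher and 9.25% lower). Of the genes averaging 30 CPM or more, 14.7% were called higher. The median log2 change was 0.31 over the members and -0.01 over all tested genes.

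SON had 490.9 and 493.1 CPM under the label RBM33 shRNA-1, 481.2, 465.5 and 476.0 CPM in those labelled shRNA-2, and 333.5, 329.3 and 374.4 CPM with the scramble. The lowest shRNA library exceeded the highest scramble library by more than the range of either group. The log2 change of 0.48 (SE 0.06, limma adjusted p = 4.4e-06) corresponds to a level 39.8% above the scramble, and the call held in 18 of 18 alternatives.

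SRRM1 (chromosome 1, 24631716 to 24673281, plus strand) had 335.9 and 355.3 CPM in the libraries labelled shRNA-1, 312.2, 289.7 and 340.4 CPM in those labelled shRNA-2, and 257.3, 251.0 and 275.6 CPM with the scramble. No shRNA library reached down to the scramble range. It rose by 0.33 (SE 0.07, limma adjusted p = 0.0016).

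SRRM2 (chromosome 16, 2752626 to 2772538, plus strand), the most abundant member, had 1024 and 1015 CPM in the libraries labelled shRNA-1, 936.7, 946.6 and 984.1 CPM in those labelled shRNA-2, and 807.9, 812.0 and 862.0 CPM with the scramble. It rose by 0.25 (SE 0.06, limma adjusted p = 0.0052), with no overlap between the groups. With a gene length trend removed from each library the change was 0.16 (limma adjusted p = 0.075). The ALKBH5 scramble libraries, at 924.0, 1026 and 984.2 CPM, covered nearly the same range as the libraries labelled RBM33 shRNA. The ALKBH5 scramble minus the RBM33 scramble was 0.24 for SRRM2 (SE 0.07, limma adjusted p = 0.062), close to the size of the change itself. None of 9 members was called between the scrambles by limma (2.48% of all tested genes were), and 2 had an unadjusted p under 0.05 (SRRM2 and SON). There edgeR called 0 and DESeq2 called 1, whose own share of all genes is not given here.

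CLK1 (chromosome 2, 200853009 to 200864744, minus strand), a kinase whose own transcript is known to be spliced in response to CLK activity, had 103.5 and 98.8 CPM in the libraries labelled shRNA-1, 94.1, 90.8 and 88.9 CPM in those labelled shRNA-2, and 73.1, 73.3 and 79.2 CPM with the scramble. The groups did not overlap, and the log2 change was 0.35 (SE 0.08, limma adjusted p = 0.0029). It was called in 18 of 18 alternatives. CLK3 (chromosome 15, 74598500 to 74645414, plus strand) had 49.6 and 44.3 CPM, then 42.4, 38.2 and 46.9 CPM, against 41.9, 30.9 and 34.4 CPM with the scramble. Here the groups overlapped, and the log2 change of 0.32 (SE 0.11, limma adjusted p = 0.038) passed in 11 of 18 alternatives. With a gene length trend removed it was 0.14 (limma adjusted p = 0.4), and without RBM33 scramble replicate 2 it was 0.23 (limma adjusted p = 0.23). The call was also lost without RBM33 shRNA-1 replicate 1, shRNA-2 replicate 1, shRNA-2 replicate 3 or scramble replicate 3.

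The remaining kinases did not pass. CLK4 differed by 0.31 (SE 0.13, limma adjusted p = 0.11). Its 3 scramble libraries were spread from 24.6 to 42.2 CPM, and without scramble replicate 3 it passed at 0.47 (limma adjusted p = 0.023). CLK2 differed by 0.18 (SE 0.08, limma adjusted p = 0.13) and passed without RBM33 shRNA-2 replicate 2 (0.23, limma adjusted p = 0.036). SRPK1 was at 335.0 to 387.8 CPM under the RBM33 shRNA label and at 371.4 to 411.9 CPM with the scramble, a difference of -0.11 (95% interval -0.24 to 0.01). SRPK2 differed by -0.08 (95% interval -0.27 to 0.11).

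Each label taken alone gave 4 called members of 9, where 10.9% (shRNA-1) and 13.7% (shRNA-2) of all tested genes were called. They were SON, SRRM1, SRRM2 and CLK1 with both, and both comparisons use the same scramble libraries. Of the genes averaging 30 CPM or more, 20.5% (shRNA-1) and 25.2% (shRNA-2) were called. SON stood at 0.51 and 0.46, SRRM1 at 0.40 and 0.26, SRRM2 at 0.30 and 0.21, and CLK1 at 0.42 and 0.28. In the authors' deposited edgeR tables the same 4 genes were at an FDR under 0.05 with each label, and in the authors' deposited DESeq2 table for shRNA-2 CLK1 was at an adjusted p of 0.053 and SRPK1 at -0.18 with an adjusted p of 0.047. Without any 1 of their own libraries, the counts were 2 with shRNA-1 and 1 or 2 with shRNA-2, and with shRNA-2 also 1 without RBM33 scramble replicate 1 or replicate 2.

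**Figure D2:**
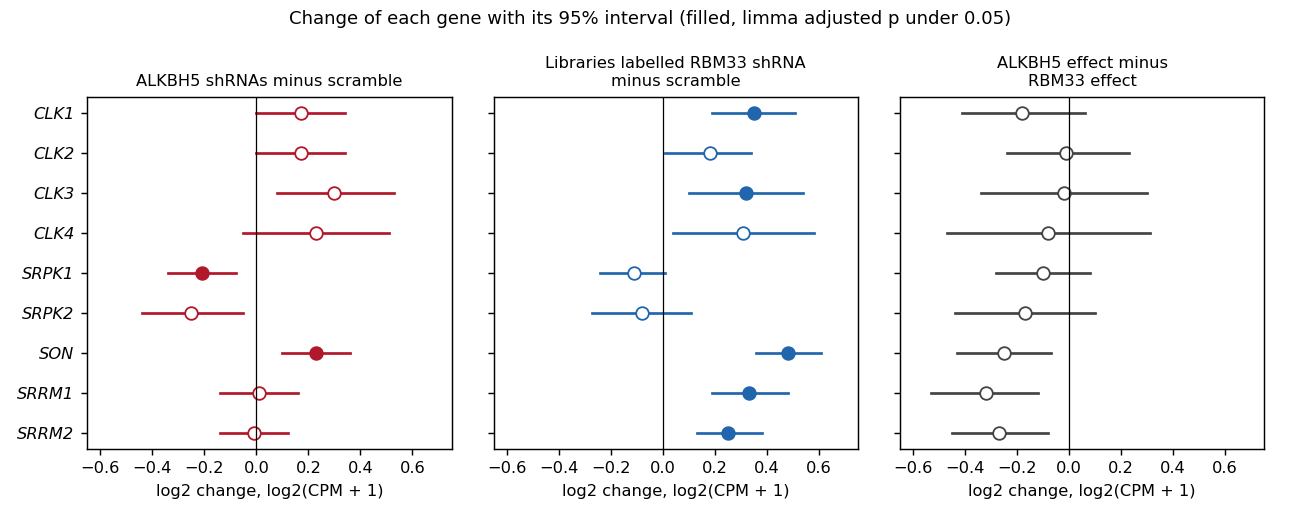
Log2 change of each gene on the log2(CPM + 1) scale with its 95% interval, for ALKBH5 shRNAs minus scramble, libraries labelled RBM33 shRNA minus scramble, and the difference between both; filled points passed a limma adjusted p under 0.05. SON passed in the left and middle panels at 0.23 and 0.48, and no gene passed in the right panel.

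Whether both targets moved the members differently was tested as an interaction. The speckle proteins had the largest differences. The ALKBH5 change minus the RBM33 change was -0.32 for SRRM1 (SE 0.10, 95% interval -0.53 to -0.12, limma adjusted p = 0.088), -0.27 for SRRM2 (SE 0.09, limma adjusted p = 0.12) and -0.25 for SON (SE 0.09, limma adjusted p = 0.14). These 3 had an unadjusted p under 0.05, and limma called 0 of 9 members (2.69% of all tested genes). DESeq2 on whole reads called all 3 and edgeR called 0. The 2.69% is the share called by limma, and that of DESeq2 is not given here. With a gene length trend removed the differences of SRRM2 and SON were -0.13 and -0.12. The kinases differed less, between -0.18 for CLK1 and -0.01 for CLK2, with a 95% interval of -0.24 to 0.23 for CLK2 and -0.47 to 0.31 for CLK4. The 2 scrambles enter this difference with opposite signs, and SON differed between the ALKBH5 and RBM33 scrambles by 0.14 (SE 0.07, limma adjusted p = 0.34).

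The partners and substrates of the members were described from 3 lists of genes. Their counts stand beside the 15.1% (ALKBH5 set) and 17.7% (RBM33 set) of all tested genes called by limma, and the 29% and 30.9% it called among genes averaging 30 CPM or more. Of 14 tested kinases, cyclins and other regulators of SR proteins, 0 were called in the ALKBH5 set by limma, edgeR or DESeq2, and 4 had an unadjusted limma p under 0.05. Without ALKBH5 shRNA-2 replicate 1, 2 were called there, CDK11A (0.37) and CDK11B (0.31). In the RBM33 set 6 were called, each higher: CDK11A (0.50, SE 0.11) and CDK11B (0.38, SE 0.09), near-identical copies whose separate values are uncertain, the transcriptional kinase CDK12 (0.40, SE 0.07, limma adjusted p = 4.9e-04), DYRK1A, PPP1R8 and PRPF4B. The median log2 change of the 14 was 0.02 in the ALKBH5 set and 0.17 in the RBM33 set. For the ALKBH5 scramble minus the RBM33 scramble it was 0.12.

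Of 35 tested speckle and SR-related genes, 7 rose and 2 fell in the ALKBH5 set, and 13 rose and 1 fell in the RBM33 set. The share called in the ALKBH5 set was not above that of genes averaging 30 CPM or more. U2AF2, the large subunit of the factor that recognises the 3' splice site, rose by 0.72 (SE 0.07) with ALKBH5 shRNA and by 0.78 (SE 0.07) in the libraries labelled RBM33 shRNA. ACIN1, a component of an RNA-binding complex deposited at exon junctions, rose by 0.58 (SE 0.08) and by 0.86 (SE 0.07). These changes were larger than that of any of the 9 members. RSRP1 rose by 0.42 (SE 0.12) in the ALKBH5 set, and PNN, a speckle-associated SR-related protein, by 0.58 (SE 0.07) in the RBM33 set. The genes that fell were NKTR (-0.33, SE 0.07) and RBM25 (-0.27, SE 0.07) in the ALKBH5 set and AKAP17A (-0.30, SE 0.10) in the RBM33 set. The medians of the list were 0.02 and 0.15, and that of the ALKBH5 scramble minus the RBM33 scramble was 0.08.

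Of 14 tested SR proteins, the substrates of both kinase families, 6 rose and 1 fell in the ALKBH5 set, and 4 rose in the RBM33 set. The RBM33 count was not above the share of genes averaging 30 CPM or more, and without ALKBH5 scramble replicate 3 the ALKBH5 count was 4. SRSF2 rose by 0.56 (SE 0.09) in each set, SRSF6 by 0.44 (SE 0.08) and 0.61 (SE 0.08), and SRSF1 by 0.36 (SE 0.07) and 0.38 (SE 0.07). SRSF2 was at 95.5 ± 6.17 and 81.2 ± 3.2 CPM with ALKBH5 shRNA-1 and shRNA-2 (SD, n = 2 each), against 59.7 ± 6.09 CPM with the scramble (SD, n = 3). TRA2A fell by 0.24 (SE 0.07) in the ALKBH5 set, and SRSF3 was the fourth SR protein to rise in the RBM33 set (0.30, SE 0.07), where DESeq2 called 7. The medians of the list were 0.22 and 0.16, and that of the ALKBH5 scramble minus the RBM33 scramble was 0.01.

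**Figure D3:**
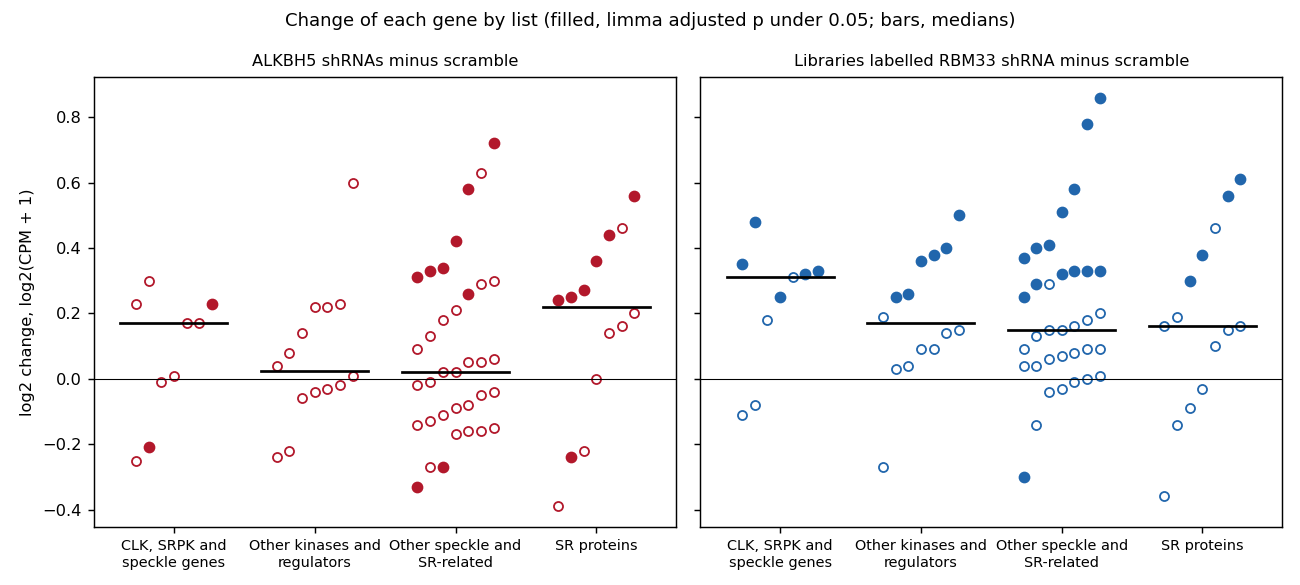
Log2 change of each tested gene by list on the log2(CPM + 1) scale, for ALKBH5 shRNAs minus scramble (left) and libraries labelled RBM33 shRNA minus scramble (right); filled points passed a limma adjusted p under 0.05 and bars are medians. The median of the 9 members was 0.17 on the left and 0.31 on the right, and U2AF2 and ACIN1 are the highest called points of the speckle list.

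Over the 15 libraries, the genes outside the group whose log2 level followed SON most closely among 10811 genes averaging 10 CPM or more were CHD2 (Pearson r = 0.983), AKAP13 (0.979) and ANKRD11 (0.975). For CLK1 they were ARID4B (0.925), AL353804.4 (0.901) and DNAJA1 (0.897). Within the group, SON had a correlation of 0.833 with CLK1, 0.768 with SRRM1 and 0.709 with SRRM2, and of -0.483 with SRPK1 and -0.225 with SRPK2. These values describe 15 libraries that share groups and scaling.

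The m6A of the members was read from the authors' deposited tables, which list peaks with an absolute effect of at least 0.5 on the natural log scale and an unadjusted p for each shRNA against its scramble. The highest p listed was 0.006 and 0.0083 with ALKBH5 shRNA-1 and shRNA-2, and 6.8e-04 and 0.0011 with RBM33 shRNA-1 and shRNA-2. Listing thus depended on p as well, more strictly in the RBM33 comparisons. Summed over the 4 comparisons, the members held 112 listed peaks, of which 91 were higher and 21 lower with the shRNA. A bin listed in several comparisons counts once in each, so these are not 112 separate sites. SRRM2 had 46 of them, SON 26, SRRM1 19, SRPK1 10, CLK2 5, SRPK2 4, CLK1 1 and CLK3 1, and CLK4 had none. With ALKBH5 shRNA-1, 7 of 9 members had a listed peak, where 32.6% of tested genes did. With ALKBH5 shRNA-2 it was again 7 of 9, against 38.2%. With RBM33 shRNA-1 it was 4 of 9, against 7.94%, and with RBM33 shRNA-2 it was 3 of 9, against 11.5%. Genes with a listed peak were more abundant and longer: in the ALKBH5 shRNA-1 table their median level was 44.3 CPM and their median exonic length 5683 bases, against 7.36 CPM and 3838 bases for genes without one, and the part of level and length in the members' counts was not tested.

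Higher effects prevailed among the members' peaks as they did in the tables. With ALKBH5 shRNA-1, 33 of 40 member peaks were higher, where 64.7% of all listed peaks were. The counts were 40 of 52 (72.5% of all) with ALKBH5 shRNA-2, 7 of 8 (87.6%) with RBM33 shRNA-1 and 11 of 12 (87.5%) with RBM33 shRNA-2.

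All SRRM1 peaks went one way: 11 of 11, 7 of 7 and 1 of 1 listed peaks were higher with the ALKBH5 shRNAs, in number order, and with RBM33 shRNA-2, while RBM33 shRNA-1 had none. The bin chr1:24669144-24669193 was listed in 3 of the authors' deposited tables, at 0.71 (p = 2.8e-04), 0.95 (p = 0.0012) and 0.64 (p = 2.8e-04). The highest SRRM1 effect in the authors' deposited tables was 1.93 (a 6.89-fold value, p = 8.5e-04), at chr1:24662729-24662778 with ALKBH5 shRNA-1, and a peak overlapping it was at 1.56 with ALKBH5 shRNA-2.

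SON peaks lay in a few stretches of the gene. Between 6489 and 10789 bases from its start the authors' deposited tables list both signs. In the authors' deposited table for ALKBH5 shRNA-1 the peak at chr21:33550877-33551026 was lower at -1.29 (a 0.275-fold value, p = 7.8e-10) and its neighbour chr21:33550777-33550826 at -0.87 (p = 0.0039). The bin at chr21:33551127-33551176 was higher in both of the authors' deposited RBM33 tables, at 0.79 (p = 1.3e-04) with shRNA-1 and 1.03 (p = 3.3e-05) with shRNA-2. Further along in the authors' deposited tables, a bin that joins both ends of a gap of 3463 bases (chr21:33569046-33572558) was at 0.91 and 0.69 with RBM33 shRNA-1 and shRNA-2, and the ALKBH5 shRNA-2 peak covering it was at 1.73 (p = 2.4e-05).

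SRRM2 had lower peaks at shared places too. In the authors' deposited tables a bin spanning a gap (chr16:2759630-2760318) was at -1.28 (p = 6.8e-04) with ALKBH5 shRNA-2 and at -1.70 (p = 5.4e-04) with RBM33 shRNA-2, which have separate scrambles. The authors' deposited values for chr16:2762630-2762729 were -0.95 (p = 1.4e-05) with ALKBH5 shRNA-1 and -0.70 (p = 1.3e-04) with ALKBH5 shRNA-2, and the bin just before it was at -0.56 (p = 4.9e-04) with RBM33 shRNA-1. Of the higher peaks, chr16:2769015-2769064 was at 1.48 with ALKBH5 shRNA-2 and 1.63 with RBM33 shRNA-2. Counting members' peaks that share at least 1 base, 7 of the 92 ALKBH5 peaks (7.61%) and 8 of the 20 RBM33 peaks (40%) overlapped one of the other target, where 5.11% and 31.4% of all listed peaks did. All 9 overlapping pairs of the members had the same sign, as did 96.1% of the pairs over all listed peaks, so neither count sets the members apart.

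**Figure D4:**
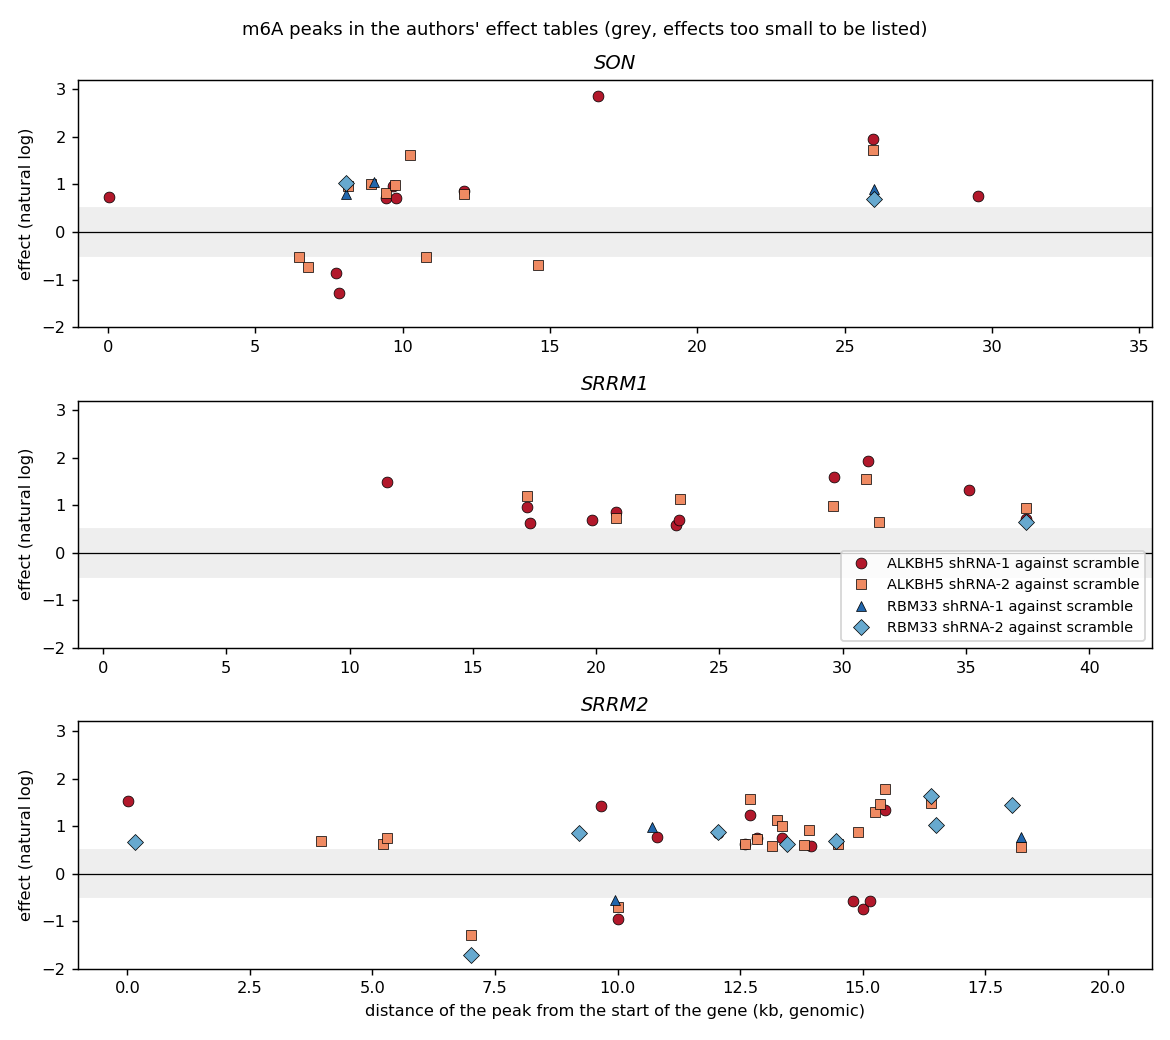
Effect on m6A (natural log, vertical axis) of each listed peak against its genomic distance in kb from the start of SON, SRRM1 and SRRM2, by comparison; the grey band marks effects too small to be listed. All SRRM1 peaks lie above the band, while SON and SRRM2 have peaks on both sides, down to -1.29 and -1.70.

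Among the kinases, SRPK1 had 8 of its 10 peaks with ALKBH5 shRNA-2. The 3 nearest its end, from chr6:35833424-35833473 to chr6:35833974-35834023, were lower, at -0.80, -0.65 and -0.96. The largest effect of any member peak in the authors' deposited tables was also in SRPK1, 3.93 (p = 4.2e-06) at chr6:35886754-35886803 with RBM33 shRNA-1. No other comparison lists this bin, and RBM33 shRNA-2, where 11.5% of tested genes have a peak, lists none in SRPK1. CLK2 had 5 peaks in the authors' deposited tables, all higher, and the bin at chr1:155263297-155263346 near its end was at 0.93 (p = 7.3e-04) with ALKBH5 shRNA-1 and 0.97 (p = 1.6e-04) with ALKBH5 shRNA-2. The single CLK1 peak in the authors' deposited tables (chr2:200861370-200861419) was at 0.74 (p = 0.0027) with ALKBH5 shRNA-1. Neither RBM33 comparison lists a CLK1 peak, but only 7.94% (shRNA-1) and 11.5% (shRNA-2) of tested genes have one there. A link between m6A and the rise of CLK1 RNA under the RBM33 shRNA label was not tested.

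The authors' second kind of deposited table gives the methylated share of a peak with an adjusted p, and few genes appear in it: 3.19% of tested genes with ALKBH5 shRNA-1, 0.748% with ALKBH5 shRNA-2, 0.0991% with RBM33 shRNA-1 and 0.0825% with RBM33 shRNA-2. The members had 4 peaks in the first, 1 in the third and none in the others. In SON, by the authors' deposited shares, chr21:33550777-33550826 was methylated at 53.6% with ALKBH5 shRNA-1 and 89.2% with the scramble (adjusted p = 0.021), and chr21:33550927-33551026 at 63.6% and 82.9% (adjusted p = 0.002). With RBM33 shRNA-1 the authors' deposited share of the overlapping peak chr21:33550877-33551076 was 90.5%, and 74.3% with its scramble (adjusted p = 5.7e-05). The values of ALKBH5 shRNA-1 and RBM33 shRNA-1 thus differ in sign at this place in SON, a difference that was not tested. No share is listed there for shRNA-2 of either target. The nearest authors' deposited effect for ALKBH5 shRNA-2, at chr21:33551177-33551226, was higher at 0.97. In SRRM2, the authors' deposited share of chr16:2762630-2762679 was 24.5% with ALKBH5 shRNA-1 and 47.4% with the scramble (adjusted p = 0.046). SRPK1 had the opposite sign in the authors' deposited shares, at 46.1% with ALKBH5 shRNA-1 and 7.8% with the scramble (adjusted p = 4.5e-06), in a peak from chr6:35920516-35921130 whose bins lie at the start of the gene. Neither a share nor an effect is listed in these bins for ALKBH5 shRNA-2. The authors' deposited effect of its adjoining peak, chr6:35890990-35920515, was lower at -0.54 (p = 1.5e-04).

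The SRPK1 peak at chr6:35920516-35921130 and 2 others, all with ALKBH5 shRNA-1, reach the windows around RefSeq transcription starts. Their sequences (RefSeq, GRCh38.p14) are shown because they place the listed bins at the start of transcripts. For SRRM1 it is a start inside the gene span given above. Each runs from 250 bases before the start to 30 bases after it on the gene's own strand, and capitals mark the part inside the peak. With the authors' deposited effects, they cover chr6:35921069-35921348 on the minus strand for SRPK1 (effect 1.48, p = 6.0e-06), chr1:24643052-24643331 on the plus strand for SRRM1 (effect 1.48, p = 2.2e-05) and chr16:2752388-2752667 on the plus strand for SRRM2 (effect 1.53, p = 0.0048).
SRPK1: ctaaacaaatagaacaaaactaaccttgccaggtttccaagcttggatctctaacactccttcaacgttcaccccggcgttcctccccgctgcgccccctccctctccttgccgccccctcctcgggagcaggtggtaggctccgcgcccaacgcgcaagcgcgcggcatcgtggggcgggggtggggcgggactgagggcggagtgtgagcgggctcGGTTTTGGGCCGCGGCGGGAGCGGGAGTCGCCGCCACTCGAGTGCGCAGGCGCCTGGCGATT
SRRM1: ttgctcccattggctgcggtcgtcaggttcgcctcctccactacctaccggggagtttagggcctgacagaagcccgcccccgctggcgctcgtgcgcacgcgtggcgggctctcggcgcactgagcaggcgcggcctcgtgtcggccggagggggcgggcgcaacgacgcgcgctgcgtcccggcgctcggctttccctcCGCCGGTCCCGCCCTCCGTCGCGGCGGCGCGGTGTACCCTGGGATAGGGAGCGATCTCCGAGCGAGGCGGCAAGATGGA
SRRM2: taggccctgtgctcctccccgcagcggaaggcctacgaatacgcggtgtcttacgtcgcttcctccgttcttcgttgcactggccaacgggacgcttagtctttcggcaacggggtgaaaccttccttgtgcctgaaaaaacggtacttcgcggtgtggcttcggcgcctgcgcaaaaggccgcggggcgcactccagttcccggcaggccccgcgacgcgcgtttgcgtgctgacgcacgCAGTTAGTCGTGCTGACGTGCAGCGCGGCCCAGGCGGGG
The capitals are 62, 79 and 39 bases long. GGAC, the core of the usual m6A consensus, read on the gene's own strand, occurs in 0 of these 3 stretches. On the gene's own strand it occurs in 14 of the 16 windows of 300 bases that RefSeq gives for the 9 members. Of all 35116 such windows, 66.3% hold it on that strand, a difference that was not tested. On either strand (GGAC or GTCC) the values are 14 of the 16 and 87.4%. These windows are longer than the stretches and lie mostly before the start, so their counts cannot be set against the 0 of 3. ATGGCGG, the core of the YY1 motif, or its complement CCGCCAT occurs in 4 of the 16, in CLK4, SON and SRRM1 (2 windows), and in 5.55% of all windows.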

How the data were processed

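RNA-seq and m6A-seq of UM-SCC-1 cells were analysed from the authors' deposited tables. The submitters' processing notes name cutadapt 1.18 (trimming), HISAT2 2.1.0 (alignment, hg38), featureCounts of Subread 1.6.4 (counting), edgeR 3.24.3 and DESeq2. RNA-seq values were deposited as a normalized signal, CPM, for 15 of the 18 RNA-seq libraries, and the other 3 were not analysed here. For each shRNA the authors also deposited log2 changes with adjusted p-values. Their m6A effects were deposited as natural log values with unadjusted p-values, a scale read from the values (5.6% to 7.86% are logarithms of multiples of 0.5, and 0% are on a log2 scale). Methylated shares were deposited by the authors as a fraction and are printed here as percent. The sources used here do not name the m6A peak caller. Per-library m6A values did not enter, so m6A effects have no replicate spread. Columns from other samples numbered 0.

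Whole reads were recovered from the CPM (100% of values within 0.1 of a read). Replicates differed by more than sampling noise (chi-square over its degrees of freedom 2.9 to 8.04), so each library counted as 1 sample. The test was limma 3.58.1 in R 4.3.3, with its variance trend, on log2(CPM + 1). Genes averaging 1 CPM or more (18227) entered one model of 6 groups, which left 9 residual degrees of freedom. It was tested on simulated data. Benjamini-Hochberg adjusted p-values over all genes, under 0.05, were called, and changes on this scale understate those of low genes. Alternatives were edgeR 4.0.16 and DESeq2 1.42.0 on whole reads, pseudocounts of 0.5 and 0.25, other filters and scalings, the removal of a gene length trend, a replicate block, a fit of the compared groups alone and each library left out. The members and lists were chosen with earlier results of these data known. Named genes are the 9 members, ALKBH5 and RBM33, the 3 called genes with the largest change per list and set, and the 3 genes most like CLK1 and SON. DYRK1A, PPP1R8, PRPF4B, NKTR, RBM25, AKAP17A, TRA2A, SRSF3 and the limit of 30 CPM were chosen after values were seen. One symbol listed in duplicate was used once.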

Additional observations from a re-analysis of the deposited data

Results flagged for a closer look

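ALKBH5 itself differed between both sets by -0.47 (ALKBH5 log2 change minus RBM33 log2 change, SE 0.11, limma interaction, adjusted p = 0.023), with a log2 change of -0.53 in the ALKBH5 set and -0.06 in the RBM33 set. The difference was called in 18 of 24 alternatives. CDK12, a kinase of RNA polymerase II, differed by -0.42 (SE 0.11, adjusted p = 0.029) and was called in 15 of 24. It was at 144.2 ± 1.8 and 144.6 ± 9.45 CPM with ALKBH5 shRNA-1 and shRNA-2 (SD, n = 2 each), against 147.2 ± 9.01 CPM with the ALKBH5 scramble (SD, n = 3). In the RBM33 set it was at 161.7 ± 14.7 CPM (SD, n = 2) and 161.6 ± 14 CPM (SD, n = 3) in the libraries labelled RBM33 shRNA-1 and shRNA-2, against 122.3 ± 2.21 CPM with the RBM33 scramble (SD, n = 3). The 2 scrambles, at 147.2 and 122.3 CPM, enter the CDK12 difference with opposite signs, and the part of their gap in it was not tested.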

How the results depend on the processing

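In the RBM33 set SON, SRRM1 and CLK1 were called in 18 of 18 alternatives and SRRM2 in 17, and in the ALKBH5 set SON was called in 16 of 17 and SRPK1 in 11. Members called over both ALKBH5 shRNAs numbered 2, but 1 with the compared groups alone in the fit or a gene length trend removed, and 1 to 2 with a library left out. With ALKBH5 shRNA-1 the count was 1, but 2 at a filter of 5 CPM, 0 with the compared groups alone and 0 with any 1 library left out. With ALKBH5 shRNA-2 it was 2, but 1 without a filter, with the compared groups alone or by edgeR, and 0 to 1 with a library left out. A library left out gave 4 to 6 calls over both RBM33 labels, 2 to 4 for RBM33 shRNA-1 and 1 to 3 for RBM33 shRNA-2. The interaction gave 0, and 3 by DESeq2. Called SR proteins in the RBM33 set numbered 4 by limma and 7 by DESeq2, and those in the ALKBH5 set 7, but 4 without ALKBH5 scramble replicate 3. Called kinases and regulators in the ALKBH5 set numbered 0, but 2 without ALKBH5 shRNA-2 replicate 1. The scrambles gave 0, and 1 with libraries rescaled or by DESeq2. Deviations of same-numbered libraries had correlations of -0.14 to 0.074 (31 pairs), and those of differently numbered libraries -0.083 to 0.157 (62 pairs). They were taken from the means of groups of 2 or 3 libraries, which ties the signs of the correlations. Whether same-numbered libraries share a culture or batch therefore cannot be told from them. With the replicate block the counts over both shRNAs stayed at 2 and 5, and that of ALKBH5 shRNA-2 was 0. Of the 112 member peaks, 39 had an absolute effect of 1 or more. The causes were not tested.

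Several uncalled changes near 0 turned sign. With a gene length trend removed these were SRRM2 in the ALKBH5 set (0.02), CLK3 in the interaction (0.17), ALKBH5 with RBM33 shRNA-2 (0.02), and CLK4 (0.00) and RBM33 (-0.02) between scrambles. With a library left out, the ranges were -0.04 to 0.06 (SRRM1) and -0.05 to 0.02 (SRRM2) in the ALKBH5 set and -0.15 to 0.03 for SRPK2 in the RBM33 set. In the interaction they were -0.06 to 0.03 (CLK2), -0.14 to 0.08 (CLK3) and -0.25 to 0.13 (CLK4). With ALKBH5 shRNA-1 they were -0.03 to 0.28 (CLK1) and 0.00 to 0.14 (SRRM2). With RBM33 shRNA-1 they were -0.08 to 0.01 (SRPK1) and -0.14 to 0.04 (SRPK2), and with RBM33 shRNA-2 -0.16 to 0.02 (SRPK2). Between scrambles they were -0.17 to 0.04 (CLK3), -0.17 to 0.21 (CLK4), -0.11 to 0.08 (SRPK2) and -0.01 to 0.13 (ALKBH5).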
